A study of Homo sapiens with 12 samples.

Results

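The genes described here are 10 nuclear genes whose products make, mature, protect or degrade the RNA of mitochondria. They were listed by symbol for their known roles, and all 10 were found among the 60675 gene IDs of the HT29 count table. HT29 is an established line derived from a human colorectal adenocarcinoma. Cells were kept for 24 h with a water extract of *Aconitum carmichaeli* Debeaux (ACD) at a low dose of 20 µg/mL, a medium dose of 100 µg/mL or a high dose of 500 µg/mL. Control cells had the vehicle alone, which was PBS with 2% DMSO. The extract was dissolved in the same vehicle, and each of the 4 groups had 3 RNA libraries. The titles and the treatment field name ACD, whereas a longer protocol note filed with the samples describes an extract of Poria cocos. Grouping followed the titles. The labels do not state that the replicates were separate cultures, so the p-values measure the spread between libraries, which may be technical.

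Human mitochondrial DNA codes for 2 rRNAs, 13 mRNAs and a set of tRNAs, and it is copied into long transcripts that cover nearly whole strands. The tRNAs between the other genes are cut out, which frees the rRNAs and mRNAs. Because they come from shared precursors, the levels of rRNA and mRNA are set in large part after transcription, by proteins that bind, tail, modify or degrade each RNA, and all of these proteins are encoded in the nucleus. POLRMT, TFAM, TFB2M and TEFM carry out transcription. LRPPRC and SLIRP hold mRNAs in a stable form, and MTPAP adds their poly(A) tails. PNPT1 and SUPV3L1 form the degrading complex, and FASTKD2 binds the larger rRNA and serves ribosome assembly.

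Totals ranged from 15941255 to 33866644 expected counts per library. Levels are given as CPM, counts scaled to the library's size with edgeR's TMM factors. Vehicle was the reference for each dose in 1 quasi-likelihood fit of all 12 libraries with edgeR, adjusted over the 15374 genes tested. A gene was called at an adjusted p under 0.05. High-dose replicate 2 stood apart from the other libraries. In genes averaging over 5 CPM, each library's log2 CPM was compared with the mean of the others in its group, and the differences had an SD of 0.50 in this library and of 0.10 to 0.29 in the other 11. That difference also moved with transcript length, from a median of 0.41 in the shortest of 4 length classes (2652 genes, median length 1370 bases) to −0.35 in the longest (2653 genes, 6982 bases). High-dose values of the named genes and the counts of calls are therefore also given without this library. Genes of chromosome M held 7.41% to 11.1% of counts in the vehicle, low-dose and medium-dose libraries and 14.0% to 16.6% at the high dose. The markers of the labelled line were present, with a summed level of 10 epithelial genes of 10960 to 13146 CPM. The summed level of 11 markers of other cell types was 9.91 to 15.2 CPM, with S100B and COL1A2 at 0 in all libraries. In bulk RNA, fewer cells of a type and less RNA per cell cannot be told apart, and only RNA was measured here, not protein.

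The setting in which these 10 genes were examined is a large shift between the classes of mitochondrial RNA in these libraries. The paper describes them as mRNA sequencing libraries, and whether the recovery of rRNA in them differed between groups was not tested. The summed level of MT-RNR1 and MT-RNR2, the small and large mitochondrial rRNAs, was 12253, 10987 and 11444 CPM in vehicle and 134280, 136530 and 117380 CPM at the high dose, an 11.2-fold difference of the means. The summed level of the 13 mitochondrial mRNAs was 89509, 73250 and 80680 CPM in vehicle and 43665, 42213 and 28781 CPM at the high dose, 0.471 times the vehicle mean. Neither pair of groups overlapped, and the p was 0.1 for each sum (exact permutation test, two-sided), which is the smallest that 3 against 3 libraries can give. At the medium dose the rRNA sum was already 21491, 21087 and 19130 CPM, 1.78 times the vehicle mean (p = 0.1 by the same exact test), whereas the mRNA sum overlapped vehicle (0.87 times, p = 0.2). This sum joins mRNAs that went in opposite directions, since 2 of the 13 had a log2 fold change above 0 and the median was −0.40. At the low dose both sums overlapped vehicle, at 0.909 and 0.939 times its mean (p = 0.2 and 0.7 by the exact permutation test). The question put to the 10 nuclear genes was whether their own transcripts moved beside this shift.

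None of them passed edgeR's test at any dose. At the high dose 0 of the 10 genes were called, against a background of 5.77% of all genes tested, and 1 of them had an unadjusted p under 0.05. Unadjusted p-values of that size were common, since an edgeR p of 0.051 ranked 3115 among the 15374 genes tested. At the medium dose 0 were called (background 1.01%) and at the low dose 0 were called (background 0.124%), with 0 at an unadjusted p under 0.05 in either. A test of the dose rank as a linear term also called 0 of 10 (background 5.74%). With the study's additional requirement of a fold change over 1.5 the counts were likewise 0, against backgrounds of 2.93%, 0.676% and 0.111% at the high, medium and low doses. DESeq2's Wald test on all libraries called 1 gene at the high dose, LRPPRC (background 8.25%), and 1 in the dose trend, again LRPPRC (background 8.46%). It called 0 at the medium and low doses (backgrounds 1.99% and 0.546%). Fitted to vehicle and the high dose only, DESeq2 called 0 (background 3.13%).

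The errors were small enough to bound most of the changes. At the high dose the 95% interval of the fold change lay wholly inside 1.5-fold in either direction for 9 of the 10 genes, SLIRP being the exception, and without high-dose replicate 2 this held for all 10. At the medium and low doses it held for 9 genes each, again with SLIRP outside. Such intervals are common in these data, since they were found for 63.9%, 67.7% and 69.7% of all genes tested at the high, medium and low doses.

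**Figure D1:**
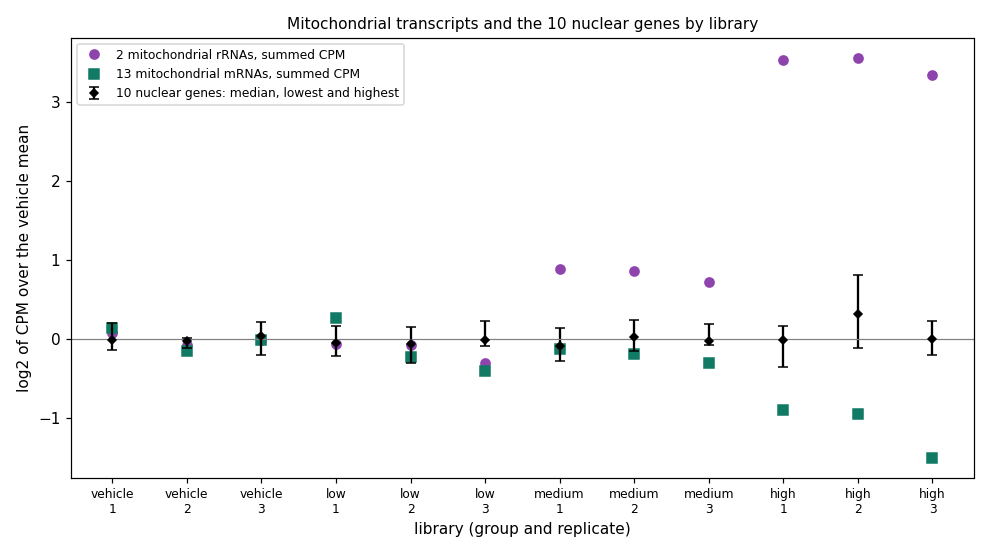
Each point is the log2 of a level in CPM over the vehicle mean, for 12 libraries (3 per group) on the x axis: circles, summed mitochondrial rRNA; squares, summed mitochondrial mRNA; diamonds with bars, the median, lowest and highest of the 10 nuclear genes. At the high dose the rRNA points lie at 3.34 to 3.56 and the mRNA points at −1.50 to −0.89, while the median of the nuclear genes lies at −0.0057, 0.32 and 0.0050 in replicates 1, 2 and 3.

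The 10 genes differed widely in abundance in vehicle. When CPM was divided by the length of the canonical transcript in GENCODE release 44, the order was SLIRP at 129.7 ± 18.5 CPM per kb (SD, n = 3), LRPPRC at 39.0 ± 2.43, TFAM at 22.8 ± 0.599, TFB2M at 18.5 ± 0.71, SUPV3L1 at 17.2 ± 0.814, PNPT1 at 15.1 ± 0.27, POLRMT at 10.95 ± 0.27, TEFM at 8.71 ± 1.22, MTPAP at 7.05 ± 0.282 and FASTKD2 at 6.36 ± 0.214 CPM per kb. The vehicle libraries of TFB2M and SUPV3L1 overlapped, so these neighbours did not differ beyond their spread, and the other neighbours in the order did not overlap. Over all 12 libraries MTPAP lay above FASTKD2 in 5, so their order also was not stable. The length of SLIRP, 376 bases, is far below that of the others (1306 to 6712 bases), and a level per length of so short a transcript depends on how effective length is counted. All 10 genes had at least 189 counts in every library.

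Of the transcription genes, POLRMT encodes the RNA polymerase of mitochondria (ENSG00000099821, chromosome 19, 617221 to 633537, GRCh38). Its level was 42.3, 41.3 and 40.3 CPM in vehicle, 42.0, 43.4 and 38.9 CPM at the low dose, 45.3, 39.2 and 40.3 CPM at the medium dose and 44.4, 38.4 and 44.1 CPM at the high dose. The groups overlapped at every dose. The log2 fold change at the high dose was 0.037 (standard error 0.082, adjusted p = 0.859 from edgeR), with a 95% interval of the fold from 0.907 to 1.16. It was 0.10 without high-dose replicate 2 (adjusted p = 0.345).

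TFAM (ENSG00000108064, chromosome 10, 58385345 to 58399220) coats mitochondrial DNA and acts at its promoters. It was at 116, 111 and 116 CPM in vehicle, 115, 105 and 111 CPM at the low dose, 108, 114 and 109 CPM at the medium dose and 114, 127 and 113 CPM at the high dose. High-dose replicate 2 was its highest library and the other 2 lay within the range of vehicle. The interval of its fold at the high dose, 0.927 to 1.14, was among the narrowest of the 10 genes, and it was 0.911 to 1.07 without that replicate.

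The promoters of nuclear genes of mitochondria often hold sites of the factors NRF1 and GABP. Windows of 300 bases around the start (250 before, 50 after) were read from RefSeq on GRCh38.p14, and all 10 genes had one. An NRF1-type motif, GCGCANGCG on either strand, was in the windows of POLRMT, TFAM, TFB2M and MTPAP, and in 7.52% of all 35116 promoter windows. This form was chosen after a stricter one, with a further C required, had been found in POLRMT and TFAM alone among the 10 genes and in 5.78% of all windows. An ETS-type motif, CCGGAAG on either strand, of the kind GABP binds, was in windows of POLRMT, SLIRP and TEFM, and in 10.3% of all windows. The windows of POLRMT and TFAM are printed because they show both motifs in the gene of the polymerase and the NRF1-type motif in that of the main DNA-binding factor, with motif letters in capitals. In POLRMT the capitals are an ETS-type motif and then 3 overlapping NRF1-type matches, and in TFAM they are 1 NRF1-type match.

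POLRMT, chr19:633488-633787, minus strand: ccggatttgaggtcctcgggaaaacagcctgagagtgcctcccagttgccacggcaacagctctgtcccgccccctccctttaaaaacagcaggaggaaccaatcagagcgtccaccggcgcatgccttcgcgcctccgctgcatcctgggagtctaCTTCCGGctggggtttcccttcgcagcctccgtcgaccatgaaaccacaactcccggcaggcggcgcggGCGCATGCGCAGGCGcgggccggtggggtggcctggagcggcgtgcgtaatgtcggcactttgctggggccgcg

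TFAM, chr10:58385160-58385459, plus strand: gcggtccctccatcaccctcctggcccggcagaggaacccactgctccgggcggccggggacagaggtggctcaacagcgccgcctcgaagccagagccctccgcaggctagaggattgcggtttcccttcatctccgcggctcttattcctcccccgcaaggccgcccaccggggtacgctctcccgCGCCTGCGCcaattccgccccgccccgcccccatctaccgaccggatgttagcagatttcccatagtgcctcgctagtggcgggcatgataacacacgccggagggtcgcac

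TFB2M (ENSG00000162851, chromosome 1, 246540561 to 246566261) is the factor with which the polymerase melts a promoter. It was at 33.5, 31.6 and 34.1 CPM in vehicle and 28.6, 46.6 and 28.7 CPM at the high dose, so that replicate 2 lay above and replicates 1 and 3 below every vehicle library. The value for the group, a log2 fold change of 0.055 (standard error 0.16; edgeR, adjusted p = 0.902), thus averaged libraries on opposite sides of vehicle. Without high-dose replicate 2 it was −0.20 (standard error 0.08, adjusted p = 0.0932). At the low and medium doses the log2 fold changes were −0.073 and −0.15, and the libraries, at 28.8, 30.9 and 34.6 CPM and 27.4, 29.9 and 31.9 CPM, overlapped vehicle.

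TEFM (ENSG00000172171, chromosome 17, 30897336 to 30906238), the elongation factor, was the least abundant in CPM. Its libraries held 10.4, 10.5 and 13.2 CPM in vehicle and 9.82, 16.4 and 10.5 CPM at the high dose. The low dose gave 10.3, 11.5 and 12.5 CPM and the medium dose 10.6, 12.5 and 11.6 CPM, overlapping vehicle. Again replicate 2 of the high dose was the highest library, and the value of 0.083 for the log2 fold change (standard error 0.18, edgeR's adjusted p = 0.853) became −0.15 without it (adjusted p = 0.384). TEFM shares 542 exonic bases with an antisense gene, ENSG00000275185, which had a mean of 54.6 expected counts. The paper names a directional library kit, but the strand setting of the counting is not given in the sources used here. Reads there may therefore not have been told apart.

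**Figure D2:**
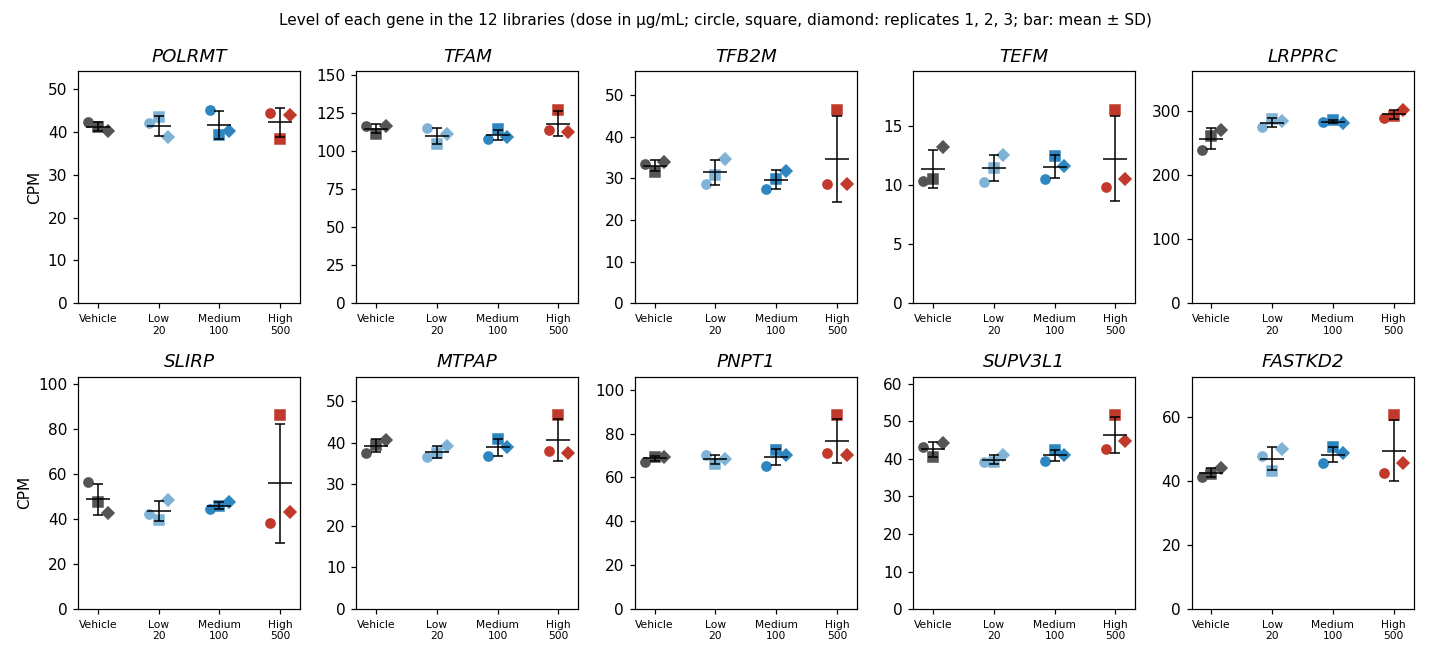
Each panel shows 1 gene, with its level in CPM on a y axis from 0, the 4 groups on the x axis (dose in µg/mL), circles, squares and diamonds for replicates 1, 2 and 3, and bars for the mean ± SD of 3 libraries. LRPPRC is the gene whose 9 treated libraries (275 to 303 CPM) all lie above the 3 vehicle libraries (240 to 271 CPM), and high-dose replicate 2 is the highest library of SLIRP (86.1 CPM), TFB2M and TEFM.

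LRPPRC, which with its partner SLIRP binds mitochondrial mRNAs and keeps them from decay and available for tailing, stood closest to a call (ENSG00000138095, chromosome 2, 43886224 to 43996226). It was at 239.9, 261 and 271 CPM in vehicle, 275, 288 and 284 CPM at the low dose, 284, 286 and 282 CPM at the medium dose and 289, 293 and 303 CPM at the high dose. All 9 treated libraries lay above all 3 vehicle libraries, and 2.59% of all genes tested lay above in the same way and 5.51% above or below. Dose by dose, 21%, 28.7% and 22% of all genes tested did not overlap vehicle at the low, medium and high doses. The log2 fold change was 0.13 at the low dose (standard error 0.066, adjusted p = 0.666 from edgeR), 0.14 for the medium dose (adjusted p = 0.439) and 0.20 for the high dose (standard error 0.066, adjusted p = 0.112), a fold of 1.15 with an interval from 1.04 to 1.27.

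High-dose replicate 2 differed little from its group in LRPPRC, by −0.015 on the log2 scale. Without this library the log2 fold change was 0.20 (standard error 0.06) and the adjusted p was 0.0238, but calls were then also made for 18.7% of all genes tested. DESeq2 on all libraries gave an adjusted p of 0.00773. Over the 20 alternatives the adjusted p was between 0.00773 and 0.497 and passed the threshold in these 2, while the log2 fold change stayed above 0, from 0.15 without vehicle replicate 1, the lowest vehicle library, to 0.25 without vehicle replicate 3. Among the genes whose centred log2 CPM lay nearest to that of LRPPRC over the 12 libraries were NCAPG2, GMPS, PTK2 and BUB1B, with root mean square differences of 0.030 to 0.032 on the log2 scale.

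SLIRP (ENSG00000119705, chromosome 14, 77708071 to 77761104), the small partner of LRPPRC, was at 56.3, 47.4 and 42.6 CPM in vehicle, 42.3, 39.7 and 48.3 CPM at the low dose, 44.5, 45.6 and 47.8 CPM at the medium dose and 38.1, 86.1 and 43.3 CPM at the high dose. Among the 10 genes it had the widest spread, and its high-dose libraries lay both above and below vehicle. The log2 fold change at the high dose was 0.18 (standard error 0.24, adjusted p = 0.731 from edgeR) with all libraries and −0.25 (standard error 0.11, adjusted p = 0.114) without high-dose replicate 2, in which SLIRP lay 1.08 above the mean of the other 2 libraries on the log2 scale. The ratio of LRPPRC to SLIRP in CPM was 4.26, 5.502 and 6.367 in vehicle and 7.58, 3.40 and 6.99 at the high dose. Thus 2 of the 3 high-dose libraries lay above the range of vehicle and replicate 2 below it. The ratio was 6.5, 7.24 and 5.88 at the low dose and 6.374, 6.27 and 5.89 at the medium dose. Libraries of these doses therefore also lay above that range. The 2 transcripts differ in length, at 6603 and 376 bases, and the part of this in the ratio was not tested. At its end SLIRP overlaps SNW1 on the opposite strand by 118 exonic bases. SNW1 had a mean of 1024 expected counts, beside 1167 counts for SLIRP. As for TEFM, reads there may not have been told apart.

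MTPAP (ENSG00000107951, chromosome 10, 30309801 to 30374448) encodes the mitochondrial poly(A) polymerase. Its level was 37.5, 39.5 and 40.6 CPM in vehicle, 36.5, 37.5 and 39.3 CPM at the low dose, 36.9, 40.9 and 38.9 CPM at the medium dose and 37.9, 46.6 and 37.6 CPM at the high dose. Apart from replicate 2, the high-dose libraries lay within the range of vehicle. The fold at the high dose had an interval from 0.905 to 1.18, and from 0.874 to 1.06 without that replicate. Exons of MTPAP also share bases with antisense and same-strand genes in GENCODE, as do those of LRPPRC with an antisense gene, and these had no counts or no entry in the count table.

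**Figure D3:**
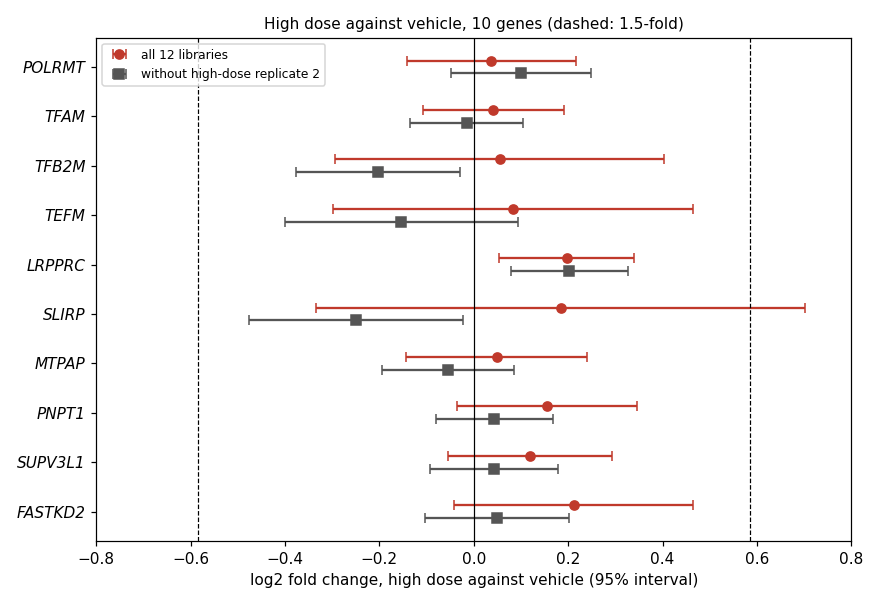
Log2 fold change at the high dose against vehicle on the x axis for the 10 genes, with 95% intervals from edgeR, for all 12 libraries (circles) and without high-dose replicate 2 (squares); dashed lines mark 1.5-fold. With all libraries the 10 values lie between 0.037 and 0.21 and the interval of LRPPRC alone excludes 0. Without the replicate 5 of the 10 lie below 0, and the intervals of LRPPRC, TFB2M and SLIRP exclude 0. The share of all genes with such an interval was not counted. In that fit 18.7% of all genes tested were called at an adjusted p under 0.05.

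PNPT1 and SUPV3L1, the exoribonuclease and the helicase of the mitochondrial degrading complex, were each measured at similar levels in vehicle and treated cells. PNPT1 (ENSG00000138035, chromosome 2, 55634061 to 55693863) was at 67.3, 69.2 and 69.5 CPM in vehicle and 71.1, 88.3 and 70.4 CPM at the high dose. These groups did not overlap, and PNPT1 lay wholly above vehicle, as 10.5% of all genes tested did, with 22% wholly above or below it. The log2 fold change was 0.16 (standard error 0.087, adjusted p = 0.362 from edgeR), and 0.043 without high-dose replicate 2 (adjusted p = 0.649). At 70.2, 66.3 and 68.3 CPM for the low dose and 65.1, 72.7 and 70.2 CPM for the medium dose PNPT1 overlapped vehicle, with log2 fold changes of −0.0086 and 0.014.

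SUPV3L1 (ENSG00000156502, chromosome 10, 69180234 to 69209099) was at 43.1, 40.4 and 44.3 CPM in vehicle, 39.1, 39.1 and 41.1 CPM at the low dose, 39.4, 42.3 and 41.0 CPM at the medium dose and 42.6, 51.6 and 44.8 CPM at the high dose. All doses overlapped vehicle. The ratio of SUPV3L1 to PNPT1 in CPM was 0.583 to 0.642 over the vehicle libraries and 0.584 to 0.637 over the high-dose libraries, within the range of vehicle. The interval of the SUPV3L1 fold at the high dose was 0.964 to 1.22, and 0.937 to 1.13 without high-dose replicate 2.

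FASTKD2 (ENSG00000118246, chromosome 2, 206765357 to 206796189), which binds mitochondrial rRNA in the granules where ribosomes are put together, had the highest log2 fold change of the 10 genes at the high dose with all libraries, 0.21 (standard error 0.12, adjusted p = 0.347 from edgeR). Its libraries were at 41.5, 42.3 and 44.3 CPM in vehicle, 47.8, 43.2 and 50.3 CPM at the low dose, 45.7, 50.6 and 48.8 CPM at the medium dose and 42.6, 60.7 and 45.6 CPM at the high dose. At the medium dose it lay wholly above vehicle, as did LRPPRC, while 14.5% of all genes tested lay wholly above vehicle at that dose and 28.7% wholly above or below it (log2 fold change 0.18, standard error 0.12, adjusted p = 0.607). Without high-dose replicate 2 the high-dose value was 0.049 (adjusted p = 0.672).

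With all libraries, then, the log2 fold change was above 0 in all 10 genes at the high dose and had a median of 0.10, beside 0.0052 over all genes tested. Without high-dose replicate 2 it was above 0 for 5 genes, with a median of 0.013, beside −0.011 over all genes. At the medium dose 5 genes and at the low dose 4 genes lay above 0, with medians of −0.0014 and −0.032. The direction shared by the 10 genes at the high dose therefore rested on 1 library. TFAM, TFB2M, TEFM, SLIRP and MTPAP changed sign without it, and LRPPRC, POLRMT, PNPT1, SUPV3L1 and FASTKD2 did not. The lowest values without it were those of the shortest transcripts, SLIRP (−0.25, 376 bases), TFB2M (−0.20, 1784 bases) and TEFM (−0.15, 1306 bases). Of the longer ones, LRPPRC (6603 bases) was at 0.20, FASTKD2 (6712 bases) at 0.049 and MTPAP (5560 bases) at −0.055. The part of transcript length and of vehicle replicate 1 in these values was not tested.

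The transcripts of NRF1, of GABP subunits and of other regulators were measured as well. Of 10 nuclear regulators listed (NRF1, GABPA, GABPB1, ESRRA, PPARGC1A, PPARGC1B, PPRC1, YY1, MYC and SP1), 9 were tested. At the high dose 0 were called (background 5.77%), with 0 at an unadjusted p under 0.05, where an edgeR p of 0.051 ranked 3115 among all genes tested. NRF1 had a log2 fold change of 0.0092 (standard error 0.083) and GABPA of 0.063 (standard error 0.088), and MYC had the largest, 0.12. These were −0.043, 0.013 and 0.15 without high-dose replicate 2, none of them called. PPARGC1A, a coactivator that raises mitochondrial content in other tissues, was at or below 0.172 CPM in every library and was not tested. Without high-dose replicate 2, 3 of the 9 were higher at the high dose by edgeR's test, PPARGC1B (log2 fold change 0.33, adjusted p = 0.0166), PPRC1 (0.26, adjusted p = 0.0109) and SP1 (0.27, adjusted p = 0.0301), whereas 18.7% of all genes tested were called in that fit. These 3 had canonical transcripts of 5328 to 10569 bases, and the other regulators tested of 2274 to 6534 bases.

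The wider machinery was examined with 71 other nuclear genes in 8 roles, all of which were tested. At the high dose 0 were called by edgeR (background 5.77%), and 7 had an unadjusted p under 0.05. Such p-values were common, since FASTKD3, with an edgeR p of 0.051, ranked 3115 among the 15374 genes tested. Their median log2 fold change was 0.073, from −0.20 to 0.33, with 48 genes above 0, beside 0.0052 over all genes. At the medium and low doses 0 were called (backgrounds 1.01% and 0.124%), with 6 and 2 genes at an unadjusted p under 0.05. There an edgeR p of 0.054 ranked 1884 at the medium dose (LRPPRC), and one of 0.052 ranked 1269 at the low dose (ELAC2). DESeq2 on all libraries called 2 at the high dose (background 8.25%), PRORP and NSUN2, both higher.

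The 4 cleavage genes code for the enzymes that cut tRNAs out of precursors, RNase P at the 5′ end (TRMT10C, HSD17B10 and PRORP) and RNase Z at the 3′ end (ELAC2). PRORP, the nuclease subunit of RNase P, had the largest value of them, 0.24 on the log2 scale (standard error 0.073) with an adjusted p of 0.0868 from edgeR. Its high-dose libraries lay wholly above vehicle, as 10.5% of all genes tested did, with 22% wholly above or below. Among the 5 other FASTK family genes, which act on mitochondrial mRNAs and precursors, FASTKD1 had the largest, 0.33 (standard error 0.12, adjusted p = 0.137), which was 0.17 without high-dose replicate 2 (adjusted p = 0.143).

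The 10 genes listed under rRNA modification include enzymes that methylate or pseudouridylate the rRNAs that were read at higher levels here. With all libraries 5 of the 10 genes lay above 0 and the median was 0.012. Without high-dose replicate 2 only 2 lay above 0 and the median was −0.052. TRMT61B, a methyltransferase, had the largest value, 0.30 (standard error 0.18, adjusted p = 0.387 from edgeR), and its libraries overlapped vehicle. That value rested on high-dose replicate 2, since it was −0.00050 without it. The 14 genes of ribosome assembly and RNA granules had a median of 0.073, with C1QBP at 0.18 (adjusted p = 0.518), which turned to −0.044 without that library. The 7 nucleases and deadenylases were the role with a median below 0, −0.065, with ENDOG at −0.17 (adjusted p = 0.604), and −0.36 without it.

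The 5 genes of termination and ribosome coupling lay between 0.073 and 0.13, the highest being MTERF1, a factor that binds just beyond the rRNA genes (adjusted p = 0.630 from edgeR), which was −0.018 without high-dose replicate 2. MTO1, which modifies tRNAs, had the largest value of its 16 genes, 0.30 (standard error 0.096, adjusted p = 0.0968 from edgeR), and 0.19 without that replicate (adjusted p = 0.0839). It lay above vehicle in 3 of 3 high-dose libraries, as 10.5% of all genes tested did. The 10 genes of mitochondrial DNA replication had a median of 0.065, with PRIMPOL, a primase and polymerase, at 0.30 (adjusted p = 0.446), and 0.11 without it.

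Without high-dose replicate 2, 8 of the 71 genes were called at the high dose, where 18.7% of all genes tested were. These 8 were named after their values were seen. Higher were LONP1, the protease that among other substrates degrades TFAM (log2 fold change 0.29, adjusted p = 0.00742 from edgeR), PRORP (0.25, adjusted p = 0.0262) and NSUN2 (0.18, adjusted p = 0.0431). Lower were LACTB2 (−0.34), ENDOG (−0.36), SSBP1 (−0.24), MALSU1 (−0.33) and YBEY (−0.38), with adjusted p-values from 0.0151 to 0.0494. LACTB2 and ENDOG are nucleases, SSBP1 binds single-stranded mitochondrial DNA, and MALSU1 and YBEY serve mitochondrial ribosomes. The median of the 71 genes was then −0.035, with 30 above 0. By role, the median without this library was −0.095 for termination (1 of 5 above 0), −0.052 for rRNA modification (2 of 10), −0.041 for ribosome assembly and granules (6 of 14) and −0.065 for nucleases and deadenylases (1 of 7), the first 3 of which had been above 0 with it. It was 0.0038 for cleavage (2 of 4), 0.073 for the FASTK family (3 of 5), 0.0085 for tRNA modification (9 of 16) and 0.022 for DNA replication (6 of 10). Of the genes called in this fit, the lower had canonical transcripts of 677 to 2905 bases and the higher of 3056 to 6186 bases. Vehicle replicate 1 was kept, and its deviations from its group had a correlation of 0.54 with those of high-dose replicate 2. The part of transcript length and of vehicle replicate 1 in these calls was not tested.

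**Figure D4:**
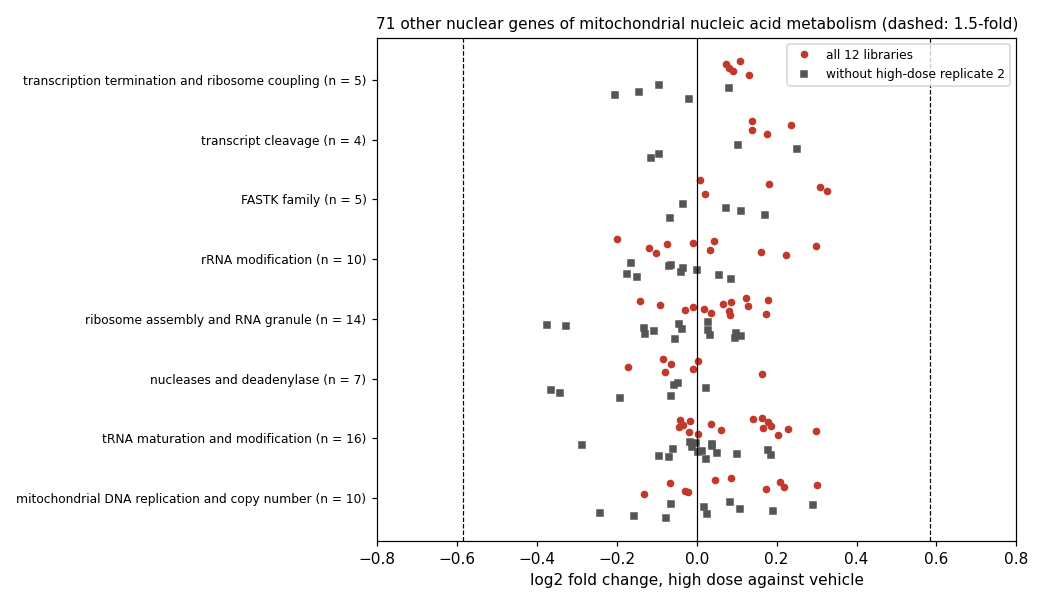
Log2 fold change at the high dose against vehicle on the x axis for 71 nuclear genes grouped by role on the y axis, each point 1 gene, for all 12 libraries (circles) and without high-dose replicate 2 (squares); dashed lines mark 1.5-fold. All points of either fit lie within the dashed lines, between −0.38 and 0.33.

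Set beside these nuclear genes, the single mitochondrial transcripts moved far more, in both directions. MT-RNR1 (chromosome M, 648 to 1601) had a log2 fold change of 4.56 at the high dose (standard error 0.12, adjusted p = 1.13e-09 from edgeR), and MT-RNR2 (1671 to 3229) of 3.27 (standard error 0.12, adjusted p = 3.43e-08). They were 4.53 and 3.23 without high-dose replicate 2. At the medium dose they were at 1.31 and 0.76, both called, and at the low dose at −0.22 and −0.13, neither called. Of the 13 mRNAs 8 were called lower and 0 higher, the median log2 fold change being −1.24 at the high dose, and 9 were called lower without high-dose replicate 2. The lowest were MT-ND4 (−1.60) and MT-ATP8 (−1.56), and the highest MT-ND5 (−0.49) and MT-ND6 (−0.56), which were not called. Without that replicate these were −1.60, −1.73, −0.66 and −1.001, and the latter pair was again not called. At the medium dose 0 of the 13 mRNAs were called (background 1.01%). MT-ND1 (0.61) and MT-ND2 (0.65) lay wholly above vehicle there, as 14.5% of all genes tested did, while the median of the 13 was −0.40. Nuclear copies of mitochondrial genes can share these reads.

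Nuclear RNAs listed as having no poly(A) tail were set beside the rRNAs. RN7SL1 and RN7SL2, the RNA of the signal recognition particle and its near copy, showed log2 fold changes of 3.58 and 4.13 at the high dose, both called by edgeR. These rested in part on high-dose replicate 2, where RN7SL1 was at 146 CPM against 34.7 and 23.5 CPM in replicates 1 and 3, and RN7SL2 at 230.3 CPM against 69.4 and 54.4 CPM. Without it the log2 fold changes were 2.38 and 3.22, both still called. RN7SL2 was also called at the medium dose (3.52) and the low dose (3.70), and at the low dose neither mitochondrial rRNA was called. RMRP and RPPH1 had means of at most 1 CPM in vehicle and at the high dose, with log2 fold changes of −0.21 and −0.998 (adjusted p = 0.924 and 0.320), and −1.35 and −1.50 without high-dose replicate 2 (adjusted p = 0.177 and 0.0440, the latter a call). Of the 14 such RNAs listed 13 were matched by symbol (RN7SK was not) and 4 were tested. The summed level of the 13 was 10.4 to 19.0 CPM in vehicle and 78.7 to 379 CPM over the 9 treated libraries. RN7SL1 and RN7SL2 made up nearly all of it, with 146 and 230.3 of 379 CPM in high-dose replicate 2. The higher sum is therefore that of these near copies and not of the list as a whole. The part of these RNAs in the rRNA result was not tested.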

How the data were processed

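RNA of 12 HT29 libraries was sequenced on an MGI system as 100 bp paired-end reads. Per the paper, these were mRNA libraries made with a directional kit. Per the labels, the authors used FastQC 0.11.9, Trim Galore 0.6.5, STAR 2.7.3a and RSEM 1.3.3 with GRCh38, and the paper names other versions of Trim Galore and STAR and the annotation GRCh38.84. The deposited values are RSEM expected counts per gene, not normalized, and 93.2% of the gene IDs are in GENCODE release 44. They were rounded to whole numbers. The strand setting of the counting is not given in the sources used here.

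Genes were kept by filterByExpr, scaled by TMM and tested in edgeR 4.0.16 (R 4.3.3, robust quasi-likelihood, 4 groups as the only terms). Standard errors and 95% intervals come from the F statistic, and log2 CPM used a prior count of 2. Where no tool is named beside an adjusted p, it is from edgeR with the Benjamini–Hochberg adjustment. DESeq2 1.42.0 was an alternative. The tests were checked on simulated data. The genes and lists were chosen with earlier results of these data known. All 10 genes are named, of each other role the gene with the largest change, of the mitochondrial mRNAs the 2 highest and 2 lowest, and of the 5 genes nearest to the member whose p at the high dose was smallest, those reported here (1 is not reported).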

Additional observations from a re-analysis of the deposited data

How the results depend on the processing

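The 10 genes gave 0 calls at the low and medium doses under every alternative run, and at the high dose and in the dose trend under all but 2. DESeq2 on all libraries called 1 gene at the high dose and 1 in the dose trend, LRPPRC in each (backgrounds 8.25% and 8.46%). When each library was left out in turn, these counts were 0 to 1, the 1 being LRPPRC without high-dose replicate 2 (backgrounds 18.7% and 17.5%). For the 71 other nuclear genes at the high dose, DESeq2 on all libraries called 2, and leaving out libraries gave 0 to 8, with 8 without high-dose replicate 2. The cause was not tested. The log2 ratio of summed mitochondrial rRNA was 3.34 as a share of all counts, against 3.48 in CPM.

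With the replicate number as a block, 0 of the 10 genes were called at each dose and in the trend, and 629 of all genes at the high dose, against 887 without it (91 against 155 at the medium dose). Same-numbered vehicle and dose libraries had correlations of their deviations from −0.495 to 0.369, so the numbers were not taken to pair the libraries. No 2 replicates agreed within sampling noise (chi-square per degree of freedom at least 3.66).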
